A study of Mus musculus with 16 samples.

Results

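The comparison described here is vertical sleeve gastrectomy (VSG) against sham surgery in GFP+ intestinal stem and progenitor cells (ISCs) of the mouse jejunum. Its members are the 6 jejunal libraries among the 16 libraries of the series, chosen by segment and surgery, and 5 of them enter the test, VSG replicates 2, 3 and 4 (n = 3) and sham replicates 1 and 2 (n = 2). The mice, females whose Lgr5 locus drives green fluorescent protein (Lgr5-EGFP), had been on a 60% fat diet for 16 weeks before VSG, which takes away 80% of the stomach, or a sham operation. At 4 weeks after surgery they were fasted overnight and killed 15 minutes after liquid feeding, and a 6 cm piece of jejunum was dissociated and sorted for GFP after removal of CD45+, CD31+, annexin V+ and Sytox+ cells. Each library is 1 mouse, VSG and sham mice are different animals, and a further sham jejunal library with low mapping had been excluded by the authors and was not used here. Lgr5 marks intestinal stem cells, and GFP outlasts Lgr5 transcription in the daughters of a stem cell, so a GFP gate can hold early absorptive and secretory progeny beside stem cells. Because each library pools the sorted cells of a mouse, fewer cells of a type and less RNA per cell cannot be told apart.

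The jejunal epithelium is renewed from Lgr5+ stem cells at the crypt base, whose daughters become absorptive enterocytes or secretory cells (goblet, Paneth, tuft and enteroendocrine cells). Enterocytes digest and absorb nutrients and, through cytochrome P450 enzymes, conjugating transferases and efflux pumps, also clear drugs, dietary chemicals and steroids before they reach the liver. The same epithelium keeps microbes away with lectins of the Reg3 family, with hydrogen peroxide from the oxidase Duox2 and with nitric oxide from Nos2.

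2 libraries stood apart from the rest and are treated separately throughout. Sham replicate 1 differed from each of the other 5 libraries by a median of 1.00 to 1.10 on the log2 scale over the 15619 genes tested, whereas the other libraries differed from each other by 0.53 to 0.78. It carried few transcripts of the crypt, with Lgr5 listed at 0 against 2053 normalized counts in sham replicate 2 and 426, 1661 and 630.3 in VSG replicates 2, 3 and 4, and many of the villus, with 293169 of the brush border enzyme gene Sis (sucrase-isomaltase) against 84043 and 103039, 92842 and 95877. Its labelled cell type was thus not borne out by Lgr5 itself, and Olfm4, another crypt base gene, was at 7345 there against 30320.4 in sham replicate 2. VSG replicate 1 carried genes of the ileum, with 196951 normalized counts of the ileal bile acid binding protein gene Fabp6 against 15.8 to 313 in the other 5, and is left out of the test and shown beside it. The value of 1 read, read off the smallest values, implies 22.2 to 57.8 M reads per library. This depth is approximate, since it assumes 1 factor per library, while values of most genes also carry a factor per gene. In each of the 5 libraries tested, 8.50% to 23.7% of the genes tested were listed at 0, most often in sham replicate 1. A gene is said below to hold without sham replicate 1 when it had an unadjusted limma p under 0.05 and groups that did not overlap with both sham libraries, and again an unadjusted p under 0.05 against sham replicate 2 alone. In that second fit the lone sham library is assumed to vary like the VSG libraries.

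Against both sham libraries, 1 of the 15619 genes with a mean above 10 was called (0.00640%) at a p under 0.05, an adjusted p under 0.2, a log2 fold change beyond 0.5 and a mean above 50. It was AY036118 (adjusted p = 0.00309 by limma, adjusted after Benjamini and Hochberg), listed at 0 in both sham libraries and at 45728, 24746 and 7462 normalized counts after VSG, with 14765 in VSG replicate 1. AY036118 (ENSMUSG00000105361, chromosome 17, 39847113 to 39848035) is annotated as a long noncoding RNA and lies within a ribosomal RNA gene. Its call was lost when any 1 of the 3 VSG libraries was left out, and the number of calls was 48 without sham replicate 1 and 3478 without sham replicate 2, so the count of calls depended on which sham library was used. The next smallest adjusted p was 0.453, so no other difference given below passes the threshold over all genes, and values, counts at an unadjusted p under 0.05 and holding without sham replicate 1 are given in its place. At an unadjusted p under 0.05, 512 genes were higher (3.28%) and 341 lower (2.18%) after VSG, and against sham replicate 2 alone 543 (3.49%) were higher and 573 (3.68%) lower. With each library scaled to the same total the first split became 611 higher and 224 lower (sham replicate 1 totalled 47.1 M normalized counts and the other 4 libraries 33.7 to 34.5 M). The 3 VSG libraries lay above both sham libraries for 1650 genes (10.6%) and below both for 1386 (8.87%), and for such genes an exact two-sided permutation test cannot give a p under 0.1, the smallest that the 10 splits of 3 libraries against 2 allow. On average 8615 genes (55.2%) lay higher in the VSG libraries, and the median over all genes was 0.13 on the log2 scale, or -0.01 without sham replicate 1. In all, 257 genes (1.65%) were higher and held without sham replicate 1, and 105 (0.672%) were lower and held. Of the 257, 100 had no library at 0 and 130 were at 0 in sham replicates 1 and 2 alike, and of the 105, 26 were listed at 0 in all 3 VSG libraries and 72 had no library at 0. In the duodenum of the same 5 mice, which has its own table and normalization, 161 of the 248 higher genes tested there were also higher, against 7443 of 14586 genes in all, and 65 of the 89 lower genes were also lower, against 7143 of 14586. The segments come from the same animals, so the duodenum is no independent set of mice.

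**Figure D1:**
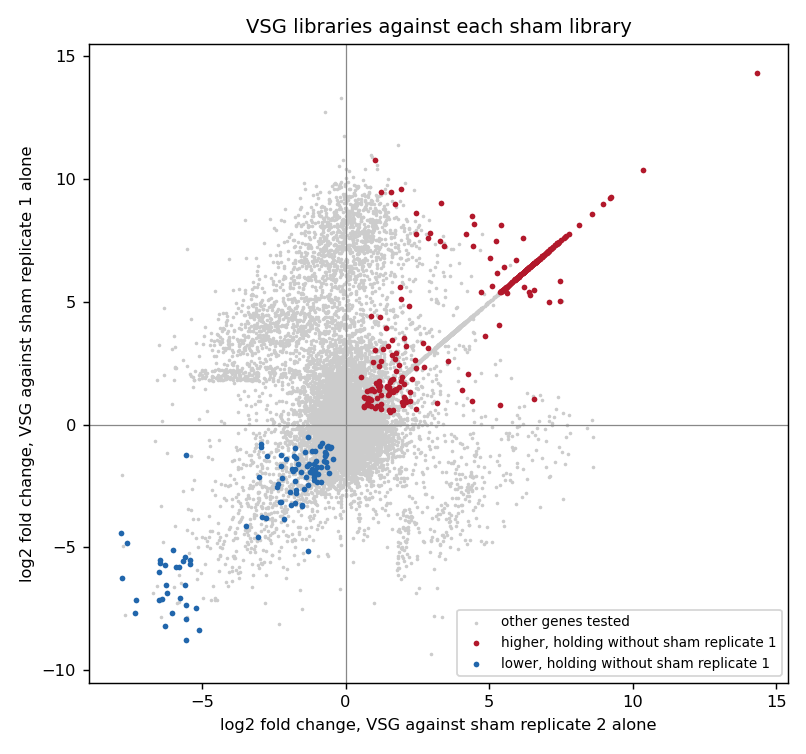
Each point is 1 gene, with the log2 fold change of the 3 VSG libraries against sham replicate 2 alone on the horizontal axis and against sham replicate 1 alone on the vertical axis. The grey cloud rises far above 0 on the vertical axis only, since many genes were at or near 0 in sham replicate 1 alone, and the 257 higher (red) and 105 lower (blue) genes that held without that library lie away from 0 on both axes, where the straight red line is genes listed at 0 in both sham libraries.

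Genes of drug and xenobiotic clearance were lower in the jejunal ISCs after VSG, against each of the sham libraries. Of 20 genes listed for xenobiotic and antioxidant defence, 18 were tested, none was higher, 14 had all 3 VSG libraries below both sham libraries and 8 had an unadjusted p under 0.05. The other members were Hmox1 and Cyp1a1, whose means did not pass 10. Among all genes tested, 8.87% lay below both sham libraries and 2.18% were lower at an unadjusted p under 0.05. The list was chosen with earlier results of these data known, so its counts are not independent evidence of a direction. The median log2 fold change of the list was -1.18, and without sham replicate 1, with 19 members tested, it was -0.63, with 18 of the 19 lower. In all, 5 members held without sham replicate 1 (Gsta1, Cyp3a11, Ces2a, Gstm3 and Abcb1a), against 0.672% of all genes. Gsta1 (ENSMUSG00000074183, chromosome 9, 78230656 to 78242684, plus strand) encodes a glutathione S-transferase, which joins glutathione to reactive compounds. It had 22425 and 12503 normalized counts in sham replicates 1 and 2 and 1869.9, 3726 and 2361 in VSG replicates 2, 3 and 4, a log2 fold change of -2.72 ± 0.42 (SE), or -2.30 without sham replicate 1 (adjusted p = 0.597 from limma). Cyp3a11 (ENSMUSG00000056035, chromosome 5, 145854426 to 145879964, minus strand) encodes the main drug-oxidizing cytochrome P450 of the mouse intestine and liver. Its values were 5921 and 2857 after sham surgery and 424, 366 and 474 after VSG, a log2 fold change of -3.29 ± 0.51, or -2.77 without sham replicate 1 (adjusted p = 0.597 from limma). For both genes each sham library lay far above the 3 VSG libraries, and VSG replicate 1, which was not tested, was lower still, with 1248 and 149.6. Ces2a, a carboxylesterase gene, had 22138 and 13220.2 after sham surgery against 6941, 4546 and 4124 after VSG (-1.76 ± 0.38, or -1.38 without sham replicate 1). Gstm3, a second glutathione transferase gene, had 7802 and 4356 against 2207, 2363 and 2616, with a log2 fold change of -1.29 ± 0.37 (-0.87 without sham replicate 1). Abcb1a encodes P-glycoprotein, which pumps drugs back into the lumen, and its 101474 normalized counts in sham replicate 1 stood far above the 7117 in sham replicate 2 and the 3641, 2267 and 2824 after VSG. Its log2 fold change thus went from -3.23 to -1.32 without sham replicate 1. The most abundant member, Ces2e, was at 74964 and 37356 after sham surgery and 30804, 27302 and 27726 after VSG (-0.89 ± 0.41) but did not hold. The antioxidant genes Nqo1 and Srxn1 differed by -0.52 and -0.69, and Txnrd1 had 8569 and 9808 against 9835, 7111 and 9744, the groups overlapping.

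**Figure D2:**
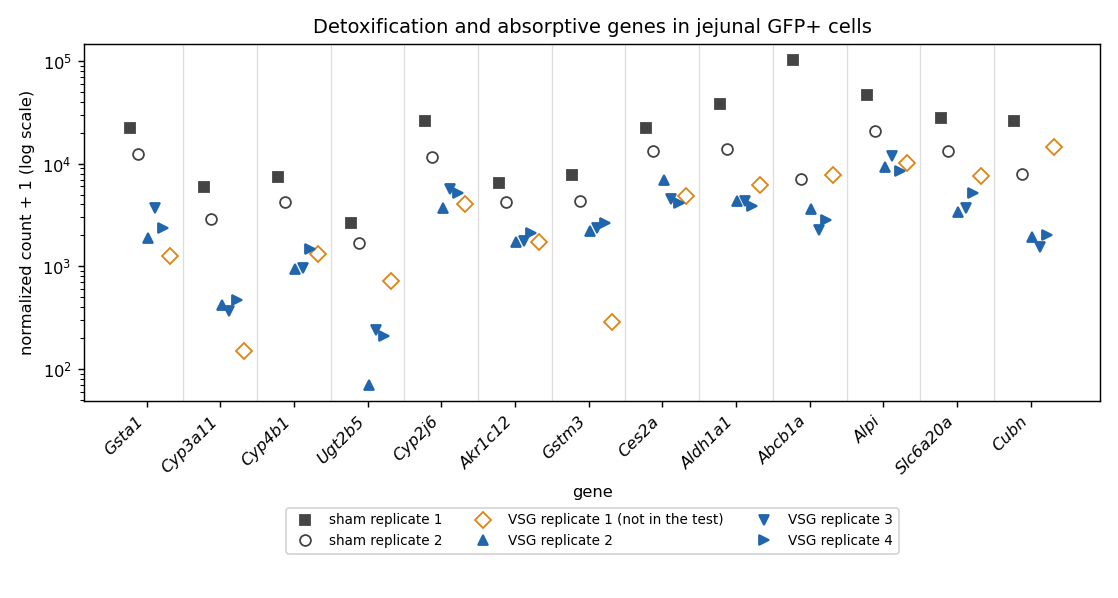
Normalized count + 1 on a log axis for 13 lower genes in each jejunal library. For every gene the 3 filled blue triangles (VSG replicates 2 to 4) lie below the filled square (sham replicate 1) and the open circle (sham replicate 2), and the open diamond is VSG replicate 1, which was not tested and which is above sham replicate 2 for Cubn and Abcb1a.

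Outside that list, Aldh1a1 and Cyp4b1 were among the 12 lower genes with the smallest p, chosen the same way as the higher genes below. Aldh1a1 (ENSMUSG00000053279, chromosome 19, 20492715 to 20643465, plus strand), which makes retinoic acid from retinal, had 38274 and 14024 normalized counts after sham surgery and 4336, 4333 and 3883 after VSG (-2.47 ± 0.44, or -1.75 without sham replicate 1). Cyp4b1, a cytochrome P450 gene, had 7323 and 4191 against 948, 967 and 1459.7 (-2.33 ± 0.42, or -1.93). The VSG values of Aldh1a1 were close to each other, and neither gene had a VSG value that reached a sham value. Because these genes belong to the same enzyme families, all genes whose symbol begins with Cyp1 to Cyp4, Ugt, Gst, Ces, Akr, Aldh, Sult or Adh were then counted, a choice made after the values were seen. Of the 109 such genes tested, 82 were lower, 54 had VSG libraries below both sham libraries, 29 had an unadjusted p under 0.05 and 10 held without sham replicate 1, while 1 lay above both sham libraries and none held as higher. The shares over all genes tested were 8.87% below both sham libraries, 2.18% lower at an unadjusted p under 0.05 and 0.672% lower and holding. Gsta1, Cyp3a11, Ces2a, Gstm3, Aldh1a1 and Cyp4b1, which prompted the count, are among the 10, so the count is not independent evidence of a direction. The median log2 fold change of the 109 genes was -0.88, and -0.57 without sham replicate 1. Among those that held, Ugt2b5, a glucuronosyltransferase gene, had 2665 and 1673 against 69.1, 241 and 207 (-3.79 ± 0.83, or -3.46 without sham replicate 1). Cyp2j6 had 25997 and 11686 against 3669.7, 5669.9 and 5134 (-1.88 ± 0.42, or -1.30), and the aldo-keto reductase gene Akr1c12 had 6473 and 4217 against 1734, 1776 and 2101 (-1.49 ± 0.36, or -1.18). In the duodenum of the same 5 mice, the log2 fold changes were -1.98 for Gsta1, -3.20 for Cyp3a11, -2.36 for Aldh1a1, -1.57 for Cyp4b1, -3.09 for Ugt2b5, -1.37 for Ces2a and -0.42 for Akr1c12. All were lower in both segments, and the difference between segments was not tested. The 4 enterocyte genes Sis, Alpi, Enpp7 and Apoc3 had a median log2 fold change of -1.50, or -0.80 without sham replicate 1. Against each gene's mean over the tested libraries their median was 1.56 and 0.20 in the sham libraries and -0.20, -0.41 and -0.86 in the VSG libraries. By this median both sham libraries lay above the 3 VSG libraries, but Sis was lower in sham replicate 2 than in each VSG library tested. For the longer brush border list sham replicate 2 had -0.20, against -0.003, -0.71 and -0.41 in VSG replicates 2, 3 and 4. For lipid absorption genes it had -0.23, against 0.13, -0.50 and -0.43. The part of enterocyte genes in the clearance genes was not tested.

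Sequences before the start sites of Cyp3a11 and Alpi (intestinal alkaline phosphatase) are shown because, of the lower genes that held without sham replicate 1 and were matched, they were the ones with CAAAGTCCA, letters known as a binding motif of the nuclear receptor HNF4, in the 250 bases before the start site on either strand. Promoter sequences from RefSeq were matched by symbol for 73 of the 105 lower and 167 of the 257 higher genes, of which 2 (2.74%) and 0 contained the motif, against 103 of all 27025 genes with such a sequence (0.381%). The motif is in capitals and begins 109 bases before the RefSeq start of Cyp3a11 and 19 bases before that of Alpi, and each sequence reads 5′ to 3′ toward the gene. GENCODE places the start of Cyp3a11 further upstream, so that 110 of its 250 bases, the motif included, are exon there, and only the 30 bases around the motif are given. A match of letters is a description, and nothing follows from it about binding in these cells.
Cyp3a11 (GRCm38.p6 chr5:145879945-145879974, minus strand): gaagagagtacCAAAGTCCAgtgatgcaaa
Alpi (GRCm38.p6 chr1:87101607-87101856, minus strand): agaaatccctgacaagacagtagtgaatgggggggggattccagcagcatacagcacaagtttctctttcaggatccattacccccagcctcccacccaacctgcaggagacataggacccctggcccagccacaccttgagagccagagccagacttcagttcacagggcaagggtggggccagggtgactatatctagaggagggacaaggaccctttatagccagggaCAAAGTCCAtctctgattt

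Absorptive genes were lower on average in the fit with both sham libraries. The difference was smaller in every one of these lists without sham replicate 1, the enterocyte median going from -1.50 to -0.80. Of the 4 enterocyte genes the study names on these samples, which are therefore not independent evidence of a direction, all 4 were lower, 3 with an unadjusted p under 0.05, and 1 (Alpi) held without sham replicate 1. Alpi had 47015 and 20838 normalized counts after sham surgery and 9253, 11852 and 8514 after VSG, with 10076 in VSG replicate 1 (-1.68 ± 0.41, or -1.09 without sham replicate 1). Enpp7, which digests sphingomyelin, had 17888 and 7025 against 4887, 4195 and 2190.3 (-1.66 ± 0.50, or -0.98), with no overlap. Apoc3, a lipoprotein gene, had 17399 and 6366 against 6599, 3215 and 3329 (-1.35 ± 0.51, or -0.62), and its highest VSG value lay above sham replicate 2. Sis turned its sign, from -0.69 to 0.21, when sham replicate 1 was left out. All 20 brush border genes and all 14 genes of sugar and amino acid transport were lower on average in the fit with both sham libraries. In each of the 2 lists, 6 members had all 3 VSG libraries below both sham libraries. The shares of all genes were 8.87% below both and 2.18% lower at an unadjusted p under 0.05. The list medians of -0.91 and -0.79 became -0.17 and -0.29 without sham replicate 1, with 5 and 2 members then higher. In these lists, 4 and 3 members had an unadjusted p under 0.05 as lower and 1 of each held. The 1 brush border gene was Cubn, the receptor for vitamin B12 bound to intrinsic factor, with 25908 and 7924 against 1915, 1528 and 2017 (-2.99 ± 0.50, or -2.13 without sham replicate 1). Cubn differed by -5.58 in the duodenum of the same mice, where its values were 4593 and 1898 after sham surgery and 476, 494 and 0 after VSG, while VSG replicate 1 of the jejunum had 14561, above sham replicate 2. The 1 transporter was Slc6a20a, which takes up proline, with 27621 and 13148 against 3399, 3680.1 and 5159.9 (-2.25 ± 0.40, or -1.71). Of 19 lipid absorption genes, 17 were lower (2 at an unadjusted p under 0.05), 2 were higher (1 at an unadjusted p under 0.05) and none held. All 3 VSG libraries lay below both sham libraries for 3 members and above both for 1. The list median of -0.72 became -0.03 without sham replicate 1, with 9 members then higher and 10 lower. Fabp2, a fatty acid binding protein gene, had 267973 and 116257 against 79871, 53344 and 62178 with a log2 fold change of -1.46 (-0.86 without sham replicate 1). Of 18 fatty acid oxidation genes, 16 were lower, 2 with an unadjusted p under 0.05 (Acaa2 at -0.83 and Ppara at -1.38), and none held, with medians of -0.47 and -0.19.

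The other lower genes named by the smallest p belonged to no list. Mkrn2, a ubiquitin ligase gene, had 4542 and 2466 normalized counts after sham surgery and 289, 252 and 495 after VSG (-3.34 ± 0.58, or -2.90 without sham replicate 1). Ada, which breaks down adenosine, had 4363 and 1496 against 126, 275 and 169.9 (-3.81 ± 0.76, or -3.04). Nsrp1, a splicing regulator gene, had 5267 and 2019 against 490.3, 540.0 and 592 (-2.59 ± 0.54, or -1.90). Lars2, the mitochondrial leucyl-tRNA synthetase gene, was unusual among these genes in that both sham libraries were alike, at 105601 and 108248, with 23518, 37283 and 14468 after VSG and 64783 in VSG replicate 1 (-2.20 ± 0.47, or -2.21). Agpat9, an acyltransferase gene of triglyceride synthesis, had 9431 and 5783 against 2437, 2514 and 2374 (-1.60 ± 0.35, or -1.24). All 5 genes held without sham replicate 1, none had an adjusted p under 0.722 from limma, and the duodenal log2 fold changes of the same mice were 0.17 for Mkrn2, -0.28 for Ada, -0.70 for Nsrp1, -1.13 for Lars2 and -1.27 for Agpat9. In addition, 9 genes with a mean above 50 were listed at 0 in all 3 VSG libraries and above 0 in both sham libraries. Hand1, Hvcn1, Ces3a and Wfdc21 were among the most abundant, and Hand1 and Ces3a were near 0 in sham replicate 2 as well, at 5.63 and 0.865. The proton channel gene Hvcn1 had 431 and 45.9 and Wfdc21 had 290.4 and 77.0.

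Further lower and higher genes that held without sham replicate 1 are named here after their values were seen. Maob, a monoamine oxidase gene, had 20216 and 7965 normalized counts after sham surgery and 3407, 4109 and 4716 after VSG (-1.65 ± 0.43, or -0.98 without sham replicate 1). Slc5a4b, a member of the sodium-glucose cotransporter family, had 14145 and 4065 against 1093, 1328 and 1938 (-2.42 ± 0.55, or -1.52). On the higher side, Tap1, which loads peptides for MHC class I, had 1824 and 755 against 6286, 2762 and 2643 (1.61 ± 0.54, or 2.24). Hk2, a hexokinase gene of glycolysis, had 706 and 819 against 2168, 3835 and 2087 (1.77 ± 0.44, or 1.66), both sham libraries lying close together and below every VSG library. Hdac1, a histone deacetylase gene, had 1038 and 1444 against 3189, 3508 and 3151 (1.42 ± 0.36, or 1.18), and the chloride channel accessory gene Clca3b had 5659 and 16806 against 34441, 29153 and 34996 (1.75 ± 0.47, or 0.96). For each of these 6 genes VSG replicate 1 lay on the side of the other VSG libraries, with 2569, 793, 5031, 2262, 3886 and 25327. The 6 were picked with values known, and that library carried ileal genes, so segment and surgery cannot be told apart in it. For other genes that held, VSG replicate 1 did not go with the other VSG libraries. Cubn, a lower gene, was above sham replicate 2 there, and Stag2, a higher gene, was below both sham libraries. The duodenal log2 fold changes of the same mice were -0.83 for Maob, -2.93 for Slc5a4b, 0.12 for Tap1, -0.21 for Hk2, -0.01 for Hdac1 and 0.56 for Clca3b.

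Antimicrobial genes were higher in the jejunal ISCs after VSG, with a wide spread among the members. The list was chosen with earlier results of these data known, so its counts are not independent evidence of a direction. For comparison, 10.6% of all genes tested had VSG libraries above both sham libraries. Of 12 genes listed, 10 were tested (Saa1 and Retnlb had means under 10), 9 were higher, 4 had VSG libraries above both sham libraries, and the same 4 (Reg3g, Duox2, Duoxa2 and Nos2) held without sham replicate 1, against 1.65% of all genes. The list's median log2 fold change was 1.43, and 2.06 without sham replicate 1, over 11 members then tested, of which 8 were higher and 3 lower. Reg3g (ENSMUSG00000030017, chromosome 6, 78466269 to 78468872, minus strand), a lectin that kills Gram-positive bacteria, had 20746 and 4169.7 normalized counts in the sham libraries and 48243, 21667 and 52399 after VSG, a log2 fold change of 2.03 ± 0.68, or 3.19 without sham replicate 1 (adjusted p = 0.774 from limma). The lowest VSG value lay just above sham replicate 1 and far above sham replicate 2. Nos2 (ENSMUSG00000020826, chromosome 11, 78920787 to 78960254, plus strand), the inducible nitric oxide synthase, had 148 and 74.1 against 1436, 545 and 878 (3.06 ± 0.84, or 3.56), and 18143 in VSG replicate 1. Duox2 (ENSMUSG00000068452, chromosome 2, 122279247 to 122298449, minus strand), an oxidase that releases hydrogen peroxide at the apical surface, and Duoxa2 (ENSMUSG00000027225, chromosome 2, 122298900 to 122302885, plus strand), the factor that it needs to mature, lie head to head with 450 bases between their starts. Duox2 had 1431 and 696 after sham surgery and 4738, 2069.9 and 2520.2 after VSG (1.54 ± 0.51, or 2.06). Duoxa2 had 2.23 and 126 against 856, 717 and 541 (5.09 ± 1.66, or 2.44), so that each gene of the pair had its lowest VSG value above its highest sham value. VSG replicate 1 was at 6926 for Duox2, 1476 for Duoxa2 and 69906 for Reg3g, above both sham libraries for all 3 genes. Reg3b, the close relative of Reg3g, had 155797 and 16736 against 134614, 80990.2 and 184556, so its log2 fold change of 1.31 ± 0.88 became 2.92 without sham replicate 1 and -0.30 without sham replicate 2. Reg3a went the other way, with 18359 and 7739 against 4443, 4617 and 1933 (-1.81 ± 0.51, or -1.18), the VSG libraries lying below both sham libraries with an unadjusted p under 0.05, but it did not hold. The polymeric immunoglobulin receptor gene Pigr, the most abundant of the list, had 209884 and 97534 against 223456, 181408 and 194505 (0.48 ± 0.60, or 1.03), and Dmbt1 had 16439.6 and 54377 against 43850.3, 31997 and 101193 (0.80 ± 0.65, or -0.06). In the duodenum of the same 5 mice the log2 fold changes were 3.53 for Reg3g, 4.31 for Nos2, 1.66 for Duox2, 4.20 for Duoxa2, 2.56 for Reg3b and -1.59 for Reg3a, the same sign as in the jejunum for each, and the difference between segments was not tested. Summed over 14 immune cell markers, the libraries had 915 and 752 normalized counts after sham surgery and 1074, 1169 and 863 after VSG, the groups overlapping, and 5 of the 6 markers tested were higher on average, and their part in these results was not tested. Of those markers, Adgre1, Cd79a, Cd8a, Itgax and Trac were at 0 in all 6 libraries, and Cd68, a macrophage marker, had 0.994 and 0 after sham surgery and 26.0, 115 and 189.6 after VSG and held without sham replicate 1.

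**Figure D3:**
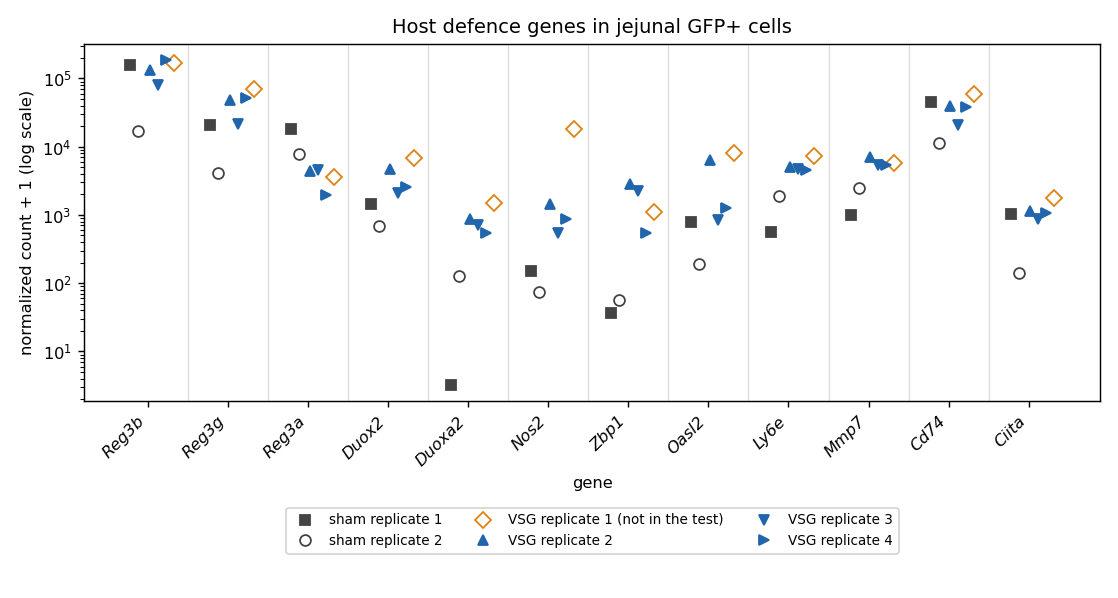
Normalized count + 1 on a log axis for 12 host defence genes in each jejunal library. The 3 filled blue triangles (VSG replicates 2 to 4) lie above both sham libraries for Reg3g, Duox2, Duoxa2, Nos2, Zbp1, Oasl2, Ly6e and Mmp7, below both for Reg3a, and overlap them for Reg3b, Cd74 and Ciita, for which the filled square (sham replicate 1) is close to the VSG libraries.

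Interferon-responsive genes leaned higher but varied widely among the VSG libraries. Of 18 tested, 16 were higher, 7 without overlap, 3 at an unadjusted p under 0.05 (Zbp1, Oasl2 and Oas1a) and 1 (Zbp1) held, with a median of 1.30, or 0.99 without sham replicate 1. By comparison, 10.6% of all genes were higher without overlap and 3.28% were higher at an unadjusted p under 0.05. Zbp1, a sensor of Z-form nucleic acid that can start necroptosis, had 35.1 and 56.0 normalized counts against 2818, 2253 and 543 (5.06 ± 0.96, or 4.73 without sham replicate 1). Oasl2 had 794 and 192 against 6290.1, 833 and 1269.9 (2.26 ± 0.94, or 3.28), and Oas1a was listed at 0 in sham replicate 1 and had 237 in sham replicate 2 and 2660.2, 300.0 and 408 after VSG. VSG replicate 2 stood highest among the tested libraries, with a median over the 18 genes 2.36 above each gene's mean on the log2 scale, against -0.12 and 0.16 in VSG replicates 3 and 4, -0.73 and -0.40 in the sham libraries and 3.05 in VSG replicate 1. Ifit1 and Ifit3, for example, were listed at 0 in VSG replicate 3 and at 2070.1 and 526 in VSG replicate 2. The antigen presentation genes of MHC class II depended on which sham library was used. All 7 were higher, none at an unadjusted p under 0.05 and none without overlap, with a median of 0.37, while against sham replicate 2 alone the median was 1.46 and 5 had an unadjusted p under 0.05. Cd74, the invariant chain, had 44401 and 11491 against 39058, 20851 and 38404, and Ciita, the master regulator of the class, had 1039.8 and 141 against 1151, 874 and 1069, so sham replicate 1 lay with the VSG libraries and sham replicate 2 below them.

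Among the 12 higher genes with the smallest p and no library at 0, leaving out predicted and clone-named genes, Pcdh1 had the smallest, with 2382 and 1834 normalized counts after sham surgery and 10389.5, 10689 and 15912 after VSG (2.53 ± 0.34, or 2.72 without sham replicate 1, adjusted p = 0.453 from limma). Pcdh1 is a protocadherin of epithelial cell contacts, and VSG replicate 1 had 1958, a value between those of the sham libraries. Pygl, the liver form of glycogen phosphorylase, had 109 and 46.6 against 2859, 1191 and 742 (4.23 ± 0.87, or 4.84), and 1679 in VSG replicate 1. Sidt2, a lysosomal membrane protein gene, had 2848 and 2212 against 6374, 13004 and 8988 (1.85 ± 0.38, or 2.03). Stag2, a subunit of cohesin, had 2006 and 1973 against 7886, 4944 and 12085 (1.97 ± 0.42, or 1.98), while VSG replicate 1 had 1273, below both sham libraries. Bax, which drives mitochondrial cell death, had 297 and 579 against 1851, 1614 and 2343 (2.20 ± 0.51, or 1.72). Mmp7, the Paneth cell protease that activates defensins, had 984 and 2472 against 6991, 5390.1 and 5368 (1.91 ± 0.44, or 1.25), although 7 of the 10 Paneth genes were lower without sham replicate 1. Ly6e, an interferon-responsive surface protein gene, had 552 and 1909 against 4991, 4697 and 4523 (2.20 ± 0.52, or 1.31). Fam45a had 423 and 90.4 against 2336, 1808 and 1277 (3.16 ± 0.75, or 4.26), and Atp13a2, a lysosomal ATPase gene, had 406 and 365 against 3342, 1109.8 and 2146 (2.37 ± 0.57, or 2.45). Ttc3, a ubiquitin ligase gene, had 873 and 647 against 2664, 5867 and 2081 (2.09 ± 0.51, or 2.30). The chemokine gene Ccl9 had 671 and 856 against 2090.2, 5817 and 2756 (2.09 ± 0.50, or 1.91) and was the 1 gene of these 12, Zbp1 included, that did not hold without sham replicate 1. In the duodenum of the same mice the log2 fold changes were 0.47 for Pcdh1, 1.60 for Pygl, -1.04 for Sidt2, -0.48 for Stag2, 0.14 for Bax, 0.90 for Ly6e, -2.73 for Fam45a and 0.42 for Ttc3.

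A further 75 genes with a mean above 50 were listed at 0 in both sham libraries and above 0 in all 3 VSG libraries, and no fold is given for them. The most abundant were Sprr2a1, Dynlt1a, St6galnac1, Dnah9 and Klhdc1. Sprr2a1, a small proline-rich protein gene, had 1443, 1029.8 and 1501 after VSG and 4679 in VSG replicate 1, but its reads can be shared with the near-identical Sprr2a2, which had 21596 and 6001 after sham surgery and 36369, 11139 and 15315 after VSG, so the value is uncertain. Dynlt1a, a dynein light chain gene with near-identical copies, had 515, 801 and 539 and is uncertain for the same reason. St6galnac1, which adds sialic acid to mucins, had 745, 541 and 518 after VSG and was listed at 0 in VSG replicate 1. For Dnah9 (54.5, 1165 and 8.13) and Klhdc1 (10.4, 908 and 15.1) VSG replicate 3 supplied nearly all of the mean. Of the 9 small proline-rich and injury genes tested, 5 were higher, and Sprr2a1 was the 1 with an unadjusted p under 0.05, with a median of 0.14, or 1.52 over 7 genes without sham replicate 1.

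Genes of stem cells, dividing cells and secretory cells were higher on average after VSG in the fit with both sham libraries. Most of these differences were absent or turned their sign against sham replicate 2 alone. In the fit with both, 3.28% of all genes were higher at an unadjusted p under 0.05. Of 14 stem cell genes, 12 were higher with a median of 1.01, but 10 were lower without sham replicate 1, with a median of -0.11. Prom1 was the 1 member with an unadjusted p under 0.05, with 1069 and 3988 normalized counts against 7852, 6015 and 5286 (1.61 ± 0.54, or 0.66 without sham replicate 1), and none held. Olfm4 and Slc12a2, the most abundant, had 7345 and 30320.4 against 29367, 29627 and 33819.6, and 3315 and 14398 against 12929.6, 14193 and 15297, so sham replicate 2 lay within or beside the VSG libraries. Of 21 proliferation genes, 19 were higher with a median of 1.28, and 19 were lower without sham replicate 1, with a median of -0.22. Mki67, which marks cycling cells, had 1402 and 6949 against 4593, 6923 and 4632, and Bub1 was the 1 member with an unadjusted p under 0.05 (38.8 and 349 against 897, 528 and 839). All 10 Paneth genes were higher, 2 at an unadjusted p under 0.05 (Mmp7 and Mptx2), with a median of 1.62 that became -0.19. The defensin gene Defa24 had 10509 and 87539 against 30998, 83083 and 76340.1. All 12 tuft cell genes were higher, 3 at an unadjusted p under 0.05 (Sh2d6, Rgs13 and Alox5), with a median of 3.30 that became 0.25, and 1 (Alox5, 0 and 238 against 729.5, 733 and 677) held. Sh2d6 had 134 and 1184 against 3614, 4128 and 2118 (2.98 ± 0.83, or 1.42). All 11 goblet cell genes were higher against both sham libraries and against sham replicate 2 alone, with medians of 1.58 and 0.51, of which 7 had an unadjusted p under 0.05 in the first comparison and none in the second, and none held. The mucin gene Muc2 had 4604 and 11497 against 16029, 25239.9 and 10719 (1.16 ± 0.50, or 0.50), and its lowest VSG value was below sham replicate 2. Ern2, a stress sensor of mucus cells, had 155 and 592 against 1586, 1904 and 855, without overlap (2.17 ± 0.72, or 1.21). By library, the stem cell list had medians -1.66 and 0.42 from each gene's mean in the sham libraries and 0.17, 0.52 and 0.64 in the VSG libraries, which places sham replicate 2 among them.

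**Figure D4:**
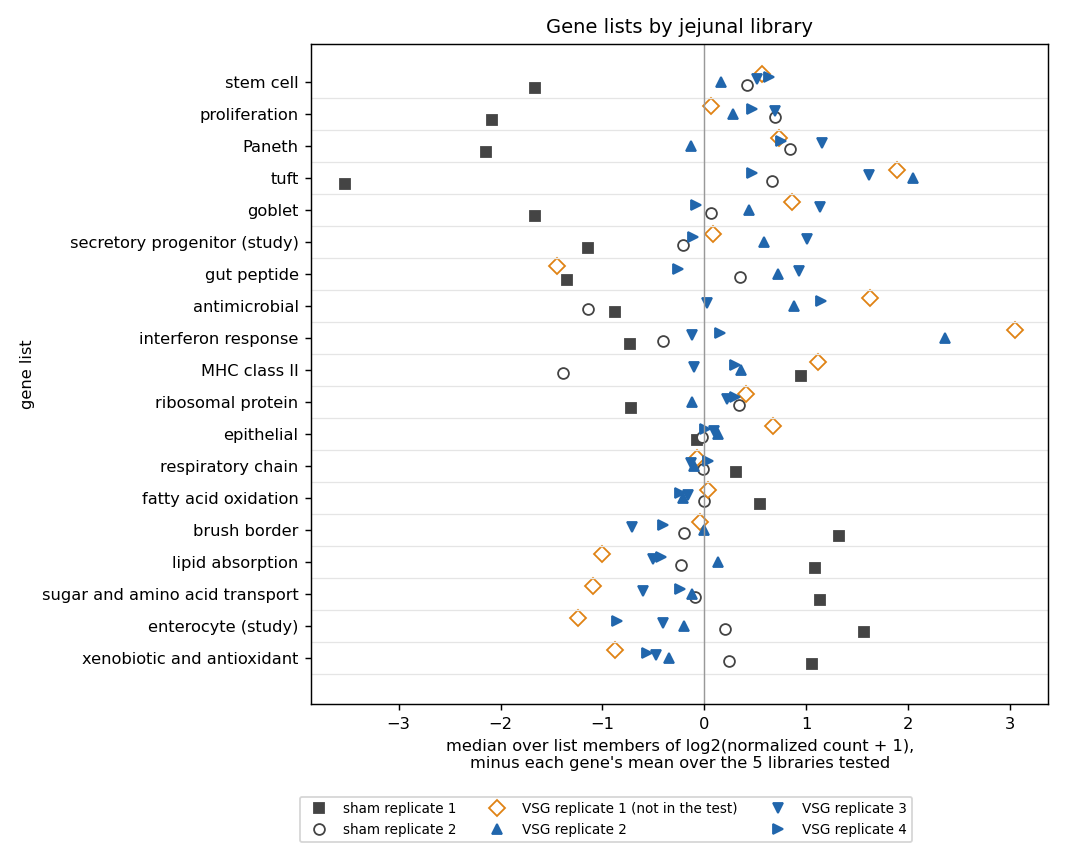
For 19 gene lists, each symbol is 1 jejunal library and its position is the median over the list's members of log2(normalized count + 1) after subtracting each gene's mean over the 5 tested libraries. The filled square (sham replicate 1) is far left for stem cell, proliferation, Paneth, tuft and goblet genes and far right for absorptive genes. For these lists the open circle (sham replicate 2) lies near or among the blue VSG triangles. Both sham symbols lie right of all 3 tested VSG libraries for xenobiotic and antioxidant, enterocyte, fatty acid oxidation, and sugar and amino acid transport genes. They lie left of all 3 for antimicrobial, interferon response, secretory progenitor and epithelial genes. The gaps are narrow for sugar and amino acid transport, secretory progenitor and epithelial genes.

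The secretory progenitor genes named by the study were higher in 17 of 18 cases, 5 at an unadjusted p under 0.05 (Cd24a, Spdef, Dll4, Cd44 and Pax4) and 4 without overlap, with a median of 1.13. Over all genes the shares were 3.28% higher at an unadjusted p under 0.05 and 10.6% higher without overlap. The study chose the secretory progenitor genes on these samples, so the count is not independent evidence of a direction, and Dll3 did not pass the filter. Without sham replicate 1, 12 were higher and 6 lower, with a median of 0.72, and 1 gene, Pax4, held. Pax4, a factor of enteroendocrine precursors, stood at 0 in each sham library and at 21.6, 45.9 and 74.4 normalized counts after VSG, and it was listed at 0 in VSG replicate 1 too. Cd24a, a surface marker of secretory cells, had 2430.2 and 10519 against 19884, 23849 and 10247 (1.74 ± 0.62, or 0.69 without sham replicate 1). Dll4, a Notch ligand of secretory cells, had 225 and 600.4 against 2746, 837 and 1038 (1.86 ± 0.72, or 1.15), and Cd44 had 207 and 376 against 669, 2248 and 1331 (2.17 ± 0.69, or 1.74), both without overlap. Spdef, a factor of goblet and Paneth cells, had 373 and 1026 against 1791, 2893 and 1006 (1.48 ± 0.63, or 0.76), and VSG replicate 4 was just under sham replicate 2. The master secretory factor Atoh1 had 450.1 and 594 against 1556, 1677 and 529 (1.11 ± 0.65, or 0.91), with VSG replicate 4 between the sham libraries. For Pax6, Insm1, Neurod1 and Neurog3 the VSG values overlapped those of the sham libraries, Neurog3, which starts the enteroendocrine fate, having 326 and 298 against 515, 558 and 204. None of the 12 gut peptide and secretory granule genes had an unadjusted p under 0.05, 10 were higher, and the median of 0.51 became -0.05 without sham replicate 1. Gcg, which encodes GLP-1, had 826 and 986 against 1148, 2364 and 714 (0.47 ± 0.59, or 0.34), and VSG replicate 1 had 7462. Pyy had 0 and 9.68 against 244, 115 and 32.2, without overlap, and 1507 in VSG replicate 1. Cck had 704 and 725 against 1183, 1209 and 815, also without overlap, but 217 in VSG replicate 1, and Gip had 15709 and 12496 against 11535, 20203 and 10843, with overlap.

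Receptors for bile acids and steroids went both ways, with 6 of 12 higher, 6 lower and a median of -0.02, or -0.14 without sham replicate 1. Of the 12, 3 had all 3 VSG libraries below both sham libraries and 1 had them above both, against 8.87% and 10.6% of all genes. At an unadjusted p under 0.05, 2 were lower and 1 higher, against 2.18% and 3.28% of all genes. Nr1h4, which encodes the bile acid receptor FXR, had 1014 and 1791 normalized counts after sham surgery and 1586, 1662 and 1755 after VSG (0.31 ± 0.43, or -0.10 without sham replicate 1), and 5937 in VSG replicate 1. At an unadjusted p under 0.05, the mineralocorticoid receptor gene Nr3c2 was higher (903 and 925 against 3559, 3074 and 1285, 1.40 ± 0.52, or 1.38), and Rxra (8721 and 5636 against 3533, 2797 and 4448, -0.99) and Nr1i3 (7938 and 3174 against 2668, 2219.7 and 2003, -1.14) were lower. All 3 had groups that did not overlap, but none held. Nr1i2, the xenobiotic receptor PXR, had 4662 and 3754 against 4324, 2243 and 3731 (-0.34 ± 0.39), with the highest VSG value between the sham values. Gpbar1, Pgr and Glp1r were among the members that did not pass the filter. Of 18 Notch pathway genes, 14 were higher, with a median of 0.21, or 0.21 without sham replicate 1. Only 1 was higher at an unadjusted p under 0.05, against 3.28% of all genes tested. It was Rbpj, the DNA-binding partner of Notch, with 405 and 681 against 3209.9, 1268 and 1112 (1.65 ± 0.60, or 1.28), and Hes1, a Notch target, had 1835 and 1849.5 against 1760.3, 4226 and 4326 (0.79 ± 0.47). Of 14 Wnt pathway genes, 5 were higher and 9 lower, with medians of -0.18 and -0.14, and the 2 at an unadjusted p under 0.05, both higher, were Ccnd1 (272 and 2655 against 2442, 5169 and 5024) and Nkd1 (0 and 12.4 against 212, 275 and 58.1). None of the Notch or Wnt genes held.

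In the remaining lists few or no members had an unadjusted p under 0.05. Of 16 genes of the unfolded protein response, 10 were higher with a median of 0.21, and of 18 genes of cholesterol synthesis, 13 were higher with a median of 0.34 (without sham replicate 1 these medians were 0.34 and 0.25). In each of these 2 lists 6 members had all 3 VSG libraries above both sham libraries, against 10.6% of all genes. Below both were 0 and 1 members, against 8.87% of all genes. For 12 immediate early genes, which tissue dissociation can induce, the medians were -0.08 and 0.40, with none at an unadjusted p under 0.05, and Fos had 56851 and 21838 against 29294, 21525 and 35204. Of 73 respiratory chain genes, 57 were lower, and of 85 ribosomal protein genes, 82 were higher, none at an unadjusted p under 0.05 in either list. Of the 73, 17 had all 3 VSG libraries below both sham libraries and 6 had them above both, and the 85 all overlapped. The ribosomal protein median of 0.35 became -0.20 without sham replicate 1, with 74 of 85 then lower, and the respiratory chain median of -0.23 became -0.10. The epithelial genes Epcam and Krt8 were level, with 47143 and 47183 against 48554, 48178 and 45344 and 98720.4 and 101638 against 102926, 110334 and 104384, and the list of 7 had a median of 0.01, with Krt18 the 1 member at an unadjusted p under 0.05 (6076 and 14484 against 21179, 21824 and 14968). Of 11 stroma and endothelium markers, Kdr, Lum and Myh11 were at 0 in all 6 libraries, and the list summed to 133 and 197 after sham surgery and 323, 80.8 and 43.6 after VSG. Of the 19 stomach and pancreas genes in the table, 12 (Tff1 and Prss2 among them) were at 0 in all 6, with sums of 334 and 487 against 280.2, 345 and 563.

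VSG replicate 1, left out of the test, had the regional genes of a more distal segment. Besides Fabp6, the ileal bile acid transporter gene Slc10a2 was at 5886 normalized counts there against 94.9 and 145 in the sham libraries and 0, 0 and 59.7 in VSG replicates 2, 3 and 4, and the ileal hormone gene Fgf15 was at 13821 against 0 and 48.9 and 368, 51.1 and 142. Slc51a, the basolateral bile acid exporter, was at 38454 against 10206 and 4579 and 6742, 4950.2 and 6275. Genes of the proximal intestine were low or absent in it, with Gata4 at 322 against 5549 and 5477 and 4619, 5417 and 6380.0, and Onecut2 and Cyp2b10 listed at 0. Among the other 5 libraries these genes did not differ between surgeries at an unadjusted p under 0.05 except Cyp2b10, a phenobarbital-inducible cytochrome P450 gene, with 7711 and 1934 against 630.3, 1082 and 668 (-2.33 ± 0.62, or -1.33 without sham replicate 1), which did not hold. Of the 6 genes of the ileal and FXR target list, 2 were higher and 4 lower, with medians of -0.10 and 1.34, and of 5 proximal genes all were lower, with a median of -0.66, or -0.14 over 6 genes. For the xenobiotic and antioxidant list VSG replicate 1 had a median of -0.87 from each gene's mean over the tested libraries, against 1.06 and 0.24 in the sham libraries and -0.35, -0.48 and -0.57 in the other VSG libraries, and for the antimicrobial list it had 1.63, against -0.88 and -1.14, and 0.89, 0.03 and 1.14. Segment and surgery cannot be told apart for this library.

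**Figure D5:**
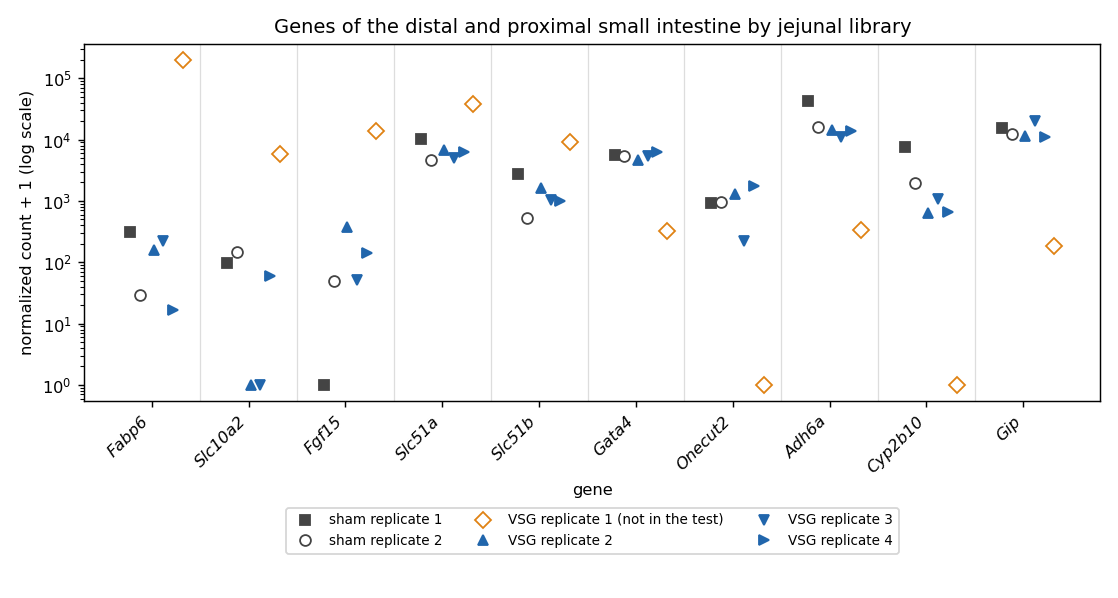
Normalized count + 1 on a log axis for 5 genes of the distal small intestine (left) and 5 of the proximal small intestine (right) in each jejunal library. The open diamond (VSG replicate 1) is far above all others for Fabp6, Slc10a2 and Fgf15 and far below them for Gata4, Onecut2, Adh6a, Cyp2b10 and Gip.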

How the data were processed

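GFP+ cells of 16 intestinal samples were profiled by RNA-seq. Per the labels and the study's methods, the authors mapped reads to the mm10 genome using STAR 2.5.3a, quantified transcripts with Salmon 0.6.0 and normalized gene counts with DESeq2 within each segment. The deposited values are therefore a normalized signal per gene, not whole reads, so no count model was used here. The authors' own tables of log2 fold changes, standard errors and p-values for each segment were not used.

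Values of 48440 genes in 6 jejunal libraries were taken as deposited, on the log2(normalized count + 1) scale, on which every fold change is given and which understates the change of low genes. The 15619 genes with a mean above 10 over the 5 libraries were fitted with limma 3.58.1 (trend, empirical Bayes, Benjamini-Hochberg adjustment) in R 4.3.3, and again without sham replicate 1. The fit of 5 libraries was tried on simulated data in which every library had the spread of the VSG libraries. No simulated library stood apart as sham replicate 1 does, and the fit without that library was not simulated. Tables and plots were made with Python 3.11.15, pandas 2.3.3, numpy 2.4.6 and matplotlib 3.10.9. Gene positions are those of GENCODE M21 on mm10. A 0 in these values can be a lost transcript, so no fold is given for a gene listed at 0 in a whole group.

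The libraries and the 31 gene lists were chosen with earlier results of these data known. Named genes were the called gene, the 12 higher and 12 lower non-overlapping genes with the smallest p, a mean above 50, no library at 0 and a symbol that is no clone or predicted-gene name, the 5 such most abundant genes per direction at 0 in 1 group alone, and in each list up to 4 most abundant members, members with an unadjusted p under 0.05 and genes named in the study. Lgr5, Slc10a2, Ugt2b5, Cyp2j6, Akr1c12, Nqo1, Srxn1, Txnrd1, Ifit1, Ifit3 and Ciita fall outside this rule and were added once their values were known. A few items that this rule names are not reported here. The settings tried instead were pseudocounts of 0.5 and 10, a mean above 50 or no filter, quantile or total scaling, limma without trend, an adjusted p under 0.05, VSG replicate 1 included, and each library left out in turn.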

Additional observations from a re-analysis of the deposited data

Results flagged for a closer look

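Among the 4 VSG libraries, VSG replicate 1 included, 10 of 104 levels tested had 1 library whose gap to the nearest other, divided by the whole range on the log2 scale, exceeded Dixon's critical value at the 95% level. Many of these levels are of genes named for their values in VSG replicates 2 to 4, so the chance rate of 1 in 20 does not apply to them. The count is a description only. VSG replicate 1 was the far library for Gstm3 (283 normalized counts, ratio 0.923), Cubn (14561, ratio 0.877), Nsrp1 (2682, ratio 0.889), Nr1h4 (5937, ratio 0.923), Nr1i3 (5.57, ratio 0.952) and Cyp2b10 (listed at 0, ratio 0.923). VSG replicate 4 was the far library for Akr1c12 (2101, ratio 0.871) and Atoh1 (529, ratio 0.910), and VSG replicate 3 for Hk2 (3835, ratio 0.868). The stroma and endothelium list had a ratio of 0.833, with VSG replicate 2 at a median log2 level of 6.17.

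In 2 of the named genes the tested VSG libraries all exceeded both sham libraries in the jejunum and were all below both in the duodenum of the same mice. This is no count over all genes tested. Sidt2 had a log2 fold change of 1.85 in the jejunum and -1.04 in the duodenum, and Fam45a 3.16 and -2.73. The difference between segments was not tested.

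VSG replicate 1 lay outside the test and held ileal genes above both sham libraries, with 196951 normalized counts of Fabp6, 38454 of Slc51a, 13821 of Fgf15 and 5886 of Slc10a2.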

How the results depend on the processing

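The number of called genes was 1 with pseudocounts of 0.5 and 10, a mean above 50, no filter, the same total or an adjusted p under 0.05, 2 with VSG replicate 1 included, 6 with quantile normalization (2 higher and 4 lower) and 96 with limma without trend (88 higher and 8 lower). Leaving out 1 library gave 0 to 3478 calls, 48 without sham replicate 1, 3478 without sham replicate 2 and 0 without any 1 of VSG replicates 2, 3 and 4, where AY036118 lost its call. Without these VSG replicates in turn, 188, 457 and 258 genes were higher and 219, 229 and 207 lower at an unadjusted p under 0.05. Genes higher at an unadjusted p under 0.05 numbered 188 to 2461 with 1 library left out, and lower genes 207 to 1381, against 224 with the same total and 226 without trend. The higher and lower counts were 611 and 224 with the same total and 480 and 374 with quantile normalization, and the median of all genes was 0.34 and 0.02 there and 0.21 with no filter, against 0.13.

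With 1 library left out, list medians ranged from -0.11 to 2.08 for stem cell, -0.22 to 2.59 for proliferation, -0.19 to 2.65 for Paneth (each below 0 without sham replicate 1), -2.17 to -0.80 for enterocyte, -1.53 to -0.63 for xenobiotic and antioxidant, 1.03 to 2.06 for antimicrobial and 0.72 to 1.75 for secretory progenitor genes, and the antimicrobial median was 1.86 with VSG replicate 1 included. The sign turned without sham replicate 1 for Sis (0.21, against -1.59 without sham replicate 2), Nr1h4 (-0.10) and Dmbt1 (-0.060, against 1.67) and without sham replicate 2 for Reg3b (-0.30, against 2.92 without sham replicate 1) and Pigr (-0.077), and the cause was not tested. Of the fold changes of 73 genes, 297 of 365 with 1 library left out and 579 of 584 under the other settings kept their direction and their side of the call, 60 gained a call without sham replicate 1 or 2 and 5 with quantile normalization, and 3 lost the call, all of AY036118. No paired analysis was possible because VSG and sham mice are different animals and the jejunal labels carry no replicate number. The precision is limited by the 2 sham libraries, of which replicate 1 stood apart, and for low genes by the share of genes listed at 0, up to 23.7% in a library.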
